A study of Mus musculus with 2 samples.

Results

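Transcript levels of 9 transcription factors of the myeloid lineage and of macrophages, *Maf*, *Spi1*, *Cebpb*, *Klf2*, *Klf4*, *Irf8*, *Bhlhe40*, *Mitf* and *Nr4a1*, were described in acutely injured skeletal muscle. They were chosen by name, not by their values, from the 32285 genes counted. The cells came from quadriceps of wild-type (WT) male C57BL/6J mice, 14 weeks old, at day 1 or day 3 after injury by intramuscular BaCl2, a salt that kills muscle fibers and starts a sterile inflammation. Single mononuclear cells were released by collagenase and dispase, cryopreserved, thawed and put through a 10x Genomics 3-prime protocol, which tags each captured mRNA with a unique molecular identifier (UMI). Each day had 1 library of pooled mice, and uninjured muscle was not analysed here. A difference between the days therefore could not be tested against the spread between mice, and it cannot be told apart from a difference between the libraries.

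The cells described were the 7367 barcodes of day 1 and the 6640 of day 3 with the most UMIs, less those with fewer than 1000 UMIs, fewer than 200 genes or more than 7.5% mitochondrial UMIs. This left 6735 cells of day 1, with a median of 9389 UMIs, and 4627 cells of day 3, with a median of 14548. The mitochondrial limit removed 7.02% of the barcodes of day 1 and 30.3% of those of day 3. No barcode occurred on both days. The libraries held 74852240 and 102565783 UMIs, and the files list 737280 possible barcodes for day 1 and 6794880 for day 3, so the reagent version may have differed, and it cannot be told apart from the day. A level is the sum of a gene's UMIs in a class of cells divided by all UMIs of that class and scaled to 1000000 (CPM). Each is followed by its 95% confidence interval where one is given in parentheses, and the intervals cover counting error only, and log2 ratios are CPM on day 3 over CPM on day 1.

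PU.1, the product of *Spi1*, and C/EBP factors open the enhancers that define macrophages and neutrophils, and the later factors act on this ground. IRF8 directs progenitors toward monocytes and dendritic cells, and KLF4 toward monocytes. KLF2 restrains inflammatory activation, c-MAF is tied to resident and anti-inflammatory macrophage states, MITF controls lysosomal genes, BHLHE40 represses *Il10* and takes part in macrophage proliferation, and NR4A1 is a nuclear receptor that is induced at once by many stimuli and is needed by patrolling monocytes.

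Clustering without the 9 genes or any marker gene gave 16 clusters, which are called here by their leading gene. A cluster took the name of the marker list with the highest score. Macrophage-like cells numbered 2404 on day 1 and 1522 on day 3, but different clusters held them. On day 1 these were the *Ccl24*-led (1319 cells) and *Cd163*-led (1058 cells) clusters, and on day 3 the *Fcrls*-led (855 cells) and *Gpnmb*-led (653 cells) clusters, so a cluster found on 1 day may reflect its library. Monocyte-like cells (940 and 505) came from the *Saa3*-led and *Ifitm6*-led clusters on day 1 and mainly from the *Rsad2*-led cluster, which was led by interferon genes, on day 3. Ratios of this class therefore set partly different clusters side by side. The *Ifitm6*-led cluster had 4 monocyte markers among its leading genes, and the *Saa3*-led and *Rsad2*-led clusters had 0. Under alternative processing the class numbered from 313 to 1189 cells on day 1 and from 723 to 1195 on day 3. The *Plac8*-led cluster (137 and 783 cells) stayed unnamed, because it had the highest score for macrophages but monocyte markers among its leading genes. Dendritic cell-like cells (450 and 451) formed the *H2-Eb1*-led cluster, in which the macrophage markers summed to 8012 and 7610.3 CPM. The dendritic cell markers there summed to 492 CPM on day 1 and 944 CPM on day 3, and the migratory dendritic cell markers to 459 and 154 CPM. Genes of the cell cycle summed to 23.0 and 962 CPM. The part of this makeup in the day ratios of the class was not tested. Neutrophil-like cells numbered 2044 and 253, and fibroblast-like cells, called FAP-like here after fibro-adipogenic progenitors, numbered 659 and 847, of which 634 on day 1 were in the *Cxcl5*-led and 838 on day 3 in the *Sfrp2*-led cluster. The automatic call of Scrublet marked 2 cells of day 1 and 0 of day 3 as doublets, too few for it to have worked, so doublets remained.

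In macrophage-like cells, *Cebpb* and *Nr4a1* were more than 2-fold lower on day 3 than on day 1, and *Irf8* was more than 2-fold higher. The *Cebpb* level was 5.41 times higher on day 1, a log2 ratio of -2.44 (-2.46 to -2.42). For *Nr4a1* the log2 ratio was -1.63 (-1.69 to -1.57), and for *Irf8* it was 1.14 (1.07 to 1.21). The other 6 genes stayed within 2-fold, *Bhlhe40* just inside it at -0.97 (-1.05 to -0.89). Of the 9 genes, 1 was thus at least 2-fold higher and 2 at least 2-fold lower, while of the 11118 genes with at least 50 UMIs 29.1% were higher and 6.32% lower by that measure. The median log2 ratio of all these genes was 0.47 and that of the 9 was -0.17. Relative to the median gene, *Irf8* differed by 0.68, *Klf2* by 0.45, *Maf* by 0.23, *Mitf* by -0.17 and *Bhlhe40* by -1.43 on the log2 scale. With libraries scaled by the median gene ratio, 0 of the 9 were 2-fold higher and 3 were 2-fold lower.

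**Figure D1:**
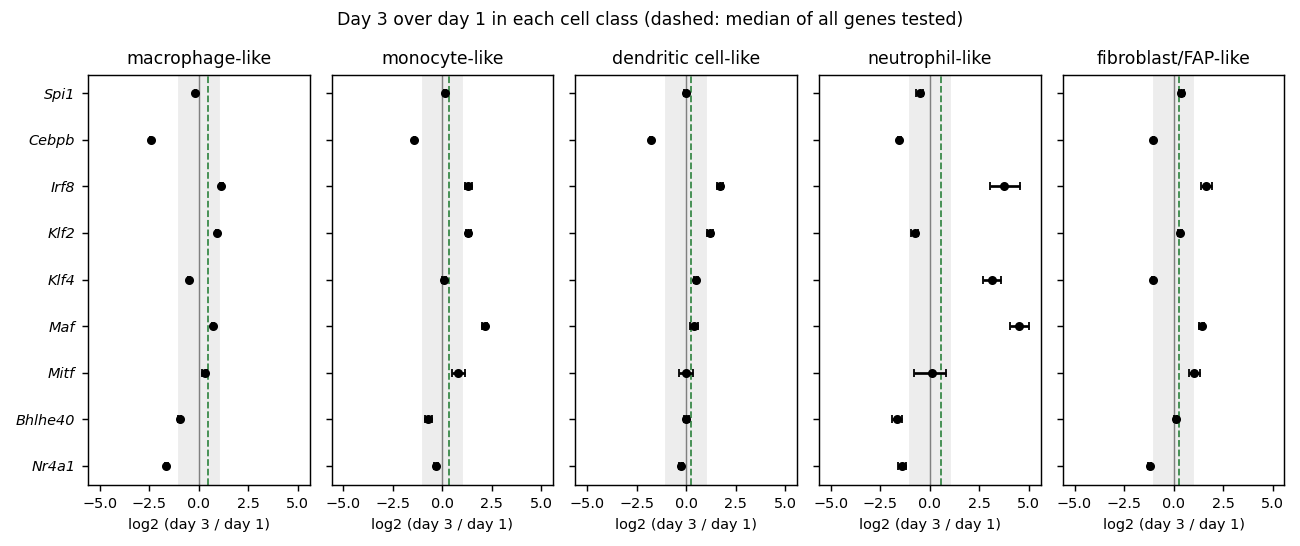
Log2 ratio of CPM on day 3 over day 1 (x axis) for the 9 genes (y axis) in 5 cell classes. Points are the ratios, bars the 95% counting intervals, the grey band is less than 2-fold and the dashed line is the median of all genes with at least 50 UMIs. Cebpb lies left of the band in every panel, and the neutrophil-like panel holds both the largest positive ratios and the widest bars.

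*Cebpb* and *Nr4a1*, the genes more than 2-fold lower on day 3 in macrophage-like cells, were chosen to be shown beside *Irf8* and *Klf2*, which were higher in several classes. Each is given with the 250 bases before a RefSeq start site (GRCm38.p6, plus strand). The capitals mark the core of the cAMP response element, TGACG, on either strand, the letters at which CREB and AP-1 related factors can bind. It occurred 3 times in the *Cebpb* window, 4 times in the *Nr4a1* window, 1 time in the *Klf2* window and 0 times in the *Irf8* window. Of all 32851 windows of this length, 17.8% held it. Among the windows not printed, that of *Klf4*, which was lower on day 3 in macrophage-like cells, held it 1 time. A window of *Mitf*, which was not lower there, held it 2 times, and the other *Mitf* and *Irf8* windows 0 times. A link between these letters and the direction of a gene was not tested.
*Cebpb* (chr2:167688665-167688914): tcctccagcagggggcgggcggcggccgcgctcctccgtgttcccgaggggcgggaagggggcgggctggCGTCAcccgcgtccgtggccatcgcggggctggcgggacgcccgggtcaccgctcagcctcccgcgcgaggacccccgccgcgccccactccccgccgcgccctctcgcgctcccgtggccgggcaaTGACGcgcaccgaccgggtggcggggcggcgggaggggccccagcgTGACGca
*Nr4a1* (chr15:101266596-101266845): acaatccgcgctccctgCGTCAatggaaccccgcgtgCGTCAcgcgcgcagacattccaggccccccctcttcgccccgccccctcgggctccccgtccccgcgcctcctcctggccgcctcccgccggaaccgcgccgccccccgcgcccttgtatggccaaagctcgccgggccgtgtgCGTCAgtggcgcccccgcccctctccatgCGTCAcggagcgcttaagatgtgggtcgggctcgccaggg
*Irf8* (chr8:120736108-120736357): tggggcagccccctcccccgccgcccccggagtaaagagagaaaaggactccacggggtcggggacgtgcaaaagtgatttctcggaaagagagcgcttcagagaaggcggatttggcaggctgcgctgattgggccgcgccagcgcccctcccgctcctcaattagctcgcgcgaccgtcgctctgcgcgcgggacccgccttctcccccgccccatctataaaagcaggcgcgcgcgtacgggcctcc
*Klf2* (chr8:72318812-72319061): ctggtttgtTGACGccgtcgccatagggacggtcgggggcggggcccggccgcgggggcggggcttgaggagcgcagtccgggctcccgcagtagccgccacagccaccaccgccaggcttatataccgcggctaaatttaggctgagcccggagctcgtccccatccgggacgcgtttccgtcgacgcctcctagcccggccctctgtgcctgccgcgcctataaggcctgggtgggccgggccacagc

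The letters of the Krüppel-like factor core CACCC lay in the *Cebpb* and *Klf2* windows and in 52.0% of all windows. None of the 4 windows held the letters of the PU.1 core GAGGAA (23.3% of all windows), the E-box CACGTG (6.02%), the M-box TCATGTG (3.25%), the full response element TGACGTCA (1.55%), the C/EBP palindrome TTGCGCAA (0.164%), the interferon response core GAAANNGAA (7.13%), the kappa B site GGGACTTTC (0.289%) or the NR4A element AAAGGTCA (1.34%). Both strands were searched, and a match describes letters, not binding.

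*Spi1* (chr2:91082374-91115759), which encodes PU.1, differed little between the 4 myeloid classes. In macrophage-like cells it stood at 420.0 CPM (413 to 427) on day 1 and 373 CPM (366 to 379.5) on day 3, with a UMI in 96.3% and 98.5% of cells. The day 1 levels of the macrophage-, monocyte-, dendritic cell- and neutrophil-like classes ran from 420.0 to 527 CPM, and those of day 3 from 371 to 503 CPM. Its log2 ratio was 0.13 in monocyte-like and -0.02 in dendritic cell-like cells. In FAP-like cells, which should lack it, *Spi1* was at 39.2 and 51.8 CPM with a UMI in 21.7% and 30.8% of cells, at median depths of 27669 and 25663 UMIs. Shares at or below these were read as background for *Spi1*. *Irf8*, which should also be absent there, had a UMI in 11.2% and 24.6% of FAP-like cells.

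*Cebpb* (chr2:167688915-167690432) encodes a basic leucine zipper factor that is induced by inflammatory signals and acts with PU.1. It stood at 4169 CPM (4146 to 4192) in macrophage-like cells of day 1 and at 771 CPM (761 to 781) on day 3. In monocyte-like cells the levels were 5157 and 1929 CPM, in dendritic cell-like cells 3290.3 and 971 CPM, and in neutrophil-like cells 9948 and 3438 CPM. Each of these classes was thus lower on day 3, as were FAP-like cells, with 1186 against 588 CPM and a log2 ratio of -1.01 (-1.04 to -0.98). The neutrophil-like value of day 3 rested in part on 35 deep cells with more macrophage than neutrophil marker UMIs. In neutrophil-like cells under 3000 UMIs the log2 ratio was -0.64 (-0.70 to -0.58), within 2-fold. The order of the named classes on day 1 was neutrophil, monocyte, macrophage, dendritic cell, endothelial and FAP, and no neighbours overlapped. On day 3 the dendritic cell-like cells stood above the macrophage-like cells. Nearly every macrophage-like cell had a UMI on both days (99.9% and 97.1%), and with each cell thinned to 3000 UMIs the shares were 99.5% and 75.7%.

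*Irf8* (chr8:120736358-120756694), the factor of monocyte and dendritic cell fate, was higher on day 3 in each class of mononuclear phagocytes. It went from 77.7 CPM (74.5 to 80.9) to 171 CPM (167 to 176) in macrophage-like cells and from 85.9 CPM (78.4 to 93.8) to 282 CPM (268 to 297) in dendritic cell-like cells, a log2 ratio of 1.71 (1.57 to 1.87) in the latter. In monocyte-like cells it stood at 58.9 and 146 CPM. The share of macrophage-like cells with a UMI was 50.9% on day 1 and 86.4% on day 3, and after thinning 18.9% and 38.9%. In dendritic cell-like cells the share without thinning was 43.1% and 55.0%. On day 1 the dendritic cell-like cells stood above the macrophage-like cells by little, a log2 ratio of 0.15, while on day 3 they stood well above the macrophage-like, and these above the monocyte-like cells. The highest level on day 3 was that of the T/NK-like cells, 1259 CPM in 38 cells. Of these, 5 cells had at least 3 UMIs of plasmacytoid dendritic cell markers and an *Irf8* level of 3412 CPM, and the other 33 were at 665 CPM (518 to 840.2).

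**Figure D2:**
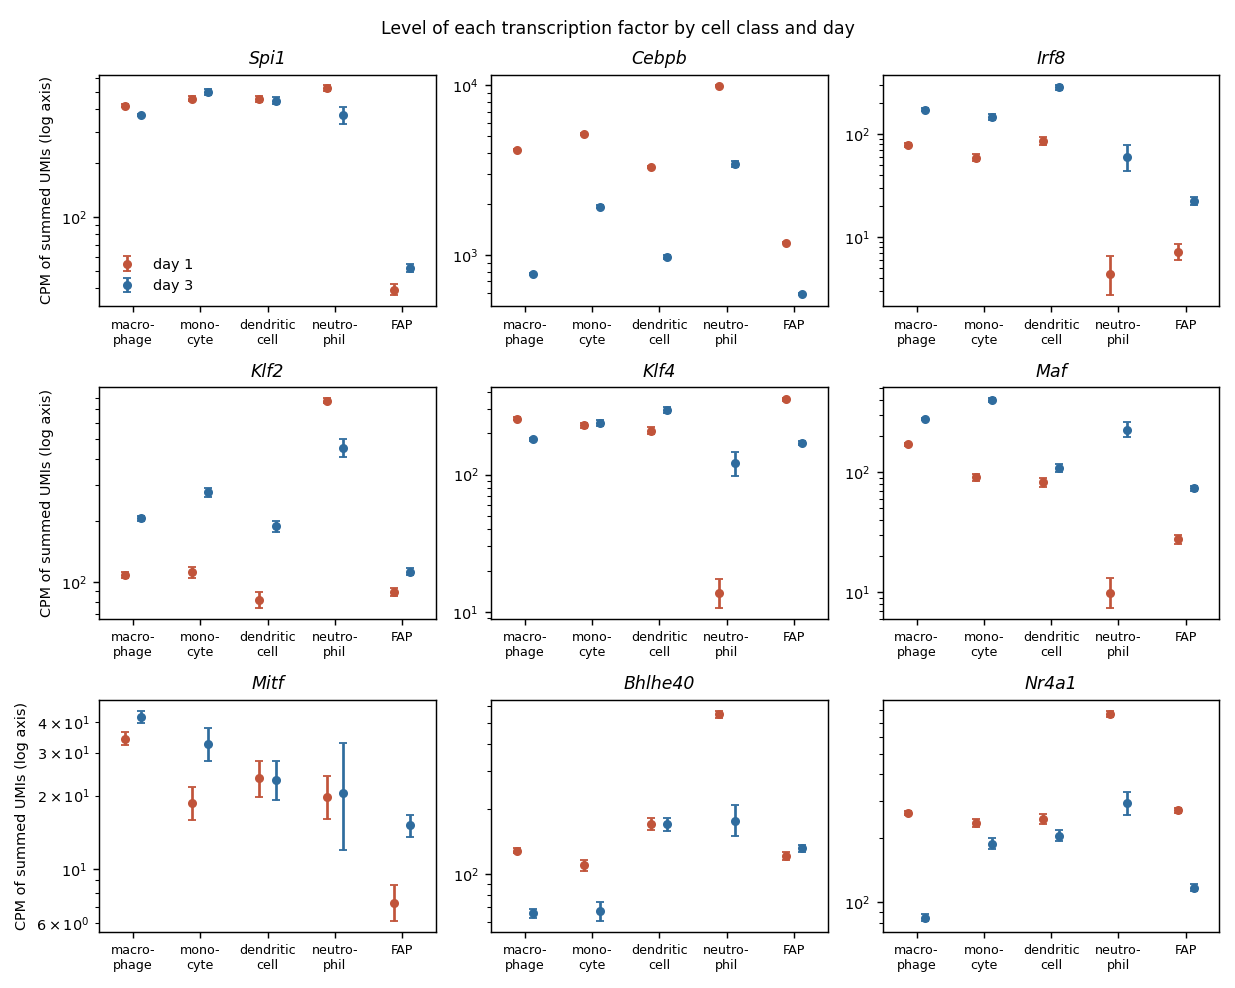
CPM of each gene (y axis, log scale, own range per panel) in 5 cell classes (x axis) on day 1 and day 3. Points are single libraries and bars are 95% Poisson intervals. Cebpb is lower on day 3 in every class, Irf8 is higher, and Spi1 is low only in FAP-like cells.

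The Krüppel-like factors *Klf2* (chr8:72319062-72321654) and *Klf4* (chr4:55527137-55532475) had opposite directions in macrophage-like cells. *Klf2* stood at 108 CPM (105 to 112) and 205 CPM (199.6 to 209.8) in macrophage-like cells, a log2 ratio of 0.92 (0.86 to 0.98). It was more than 2-fold higher on day 3 in monocyte-like cells, 112 against 276 CPM, and in dendritic cell-like cells, 81.5 against 188 CPM. The 2-fold difference was kept in 10 of 13 alternatives for the former (lowest log2 ratio 0.60) and 9 of 11 for the latter (lowest 0.64). Within the monocyte-like class, *Klf2* was more than 2-fold higher on day 3 in the *Ifitm6*-led cluster, with a log2 ratio of 1.39 (1.18 to 1.60). In the *Rsad2*-led cluster *Klf2* did not differ beyond its interval, -0.13 (-0.44 to 0.22). On day 1 its levels were highest in neutrophil-like cells, 773 CPM, and next in the 83 endothelial-like cells, 501 CPM, where it is known as a flow-responsive gene. *Klf4* was lower on day 3 in macrophage-like cells, 256 CPM (250.1 to 262) against 182 CPM (177 to 186), and did not differ beyond its interval in monocyte-like cells, with a log2 ratio of 0.06 (-0.05 to 0.16). It was higher in dendritic cell-like cells, by 0.50 (0.39 to 0.61) on the log2 scale. In FAP-like cells, where *Klf4* was as high on day 1 as in endothelial-like cells (319 CPM) within the intervals, it went from 354 to 171 CPM, a log2 ratio of -1.05.

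*Maf* (chr8:115703253-115706894) and *Mitf* (chr6:97807002-98021360) had their highest levels of day 1 in macrophage-like cells, although for *Mitf* the interval overlapped that of the *Plac8*-led cells. *Maf* stood at 170.0 CPM (165 to 175) there and at 90.7 CPM in monocyte-like cells, a log2 ratio of 0.91 between the classes. On day 3 the order turned, with 397 CPM (380.5 to 414) in monocyte-like and 275 CPM (269 to 281) in macrophage-like cells. The monocyte-like value was that of the *Rsad2*-led cells above all, at 475 CPM, while the *Ifitm6*-led cells, at 137 CPM, stayed below the macrophage-like cells. The day ratio was 2.13 (2.01 to 2.25) in the former and 0.69 (0.64 to 0.75) in the latter. The share of macrophage-like cells with a *Maf* UMI was 66.0% and 90.5%, and 34.3% and 51.7% after thinning. *Mitf* was sparse, with 34.3 CPM (32.2 to 36.4) and 42.1 CPM (39.8 to 44.5) in macrophage-like cells. With libraries scaled by the median gene ratio its log2 ratio turned from 0.30 to -0.01. Its thinned shares of 9.61% and 11.4% were close. In FAP-like cells *Mitf* was at 7.29 and 15.1 CPM, on day 1 within the interval of the endothelial-like cells. Monocyte-like cells had 18.6 and 32.5 CPM, dendritic cell-like cells 23.5 and 23.2 CPM. *Maf* was at 82.0 and 108 CPM in dendritic cell-like and 27.4 and 73.4 CPM in FAP-like cells.

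*Bhlhe40* (chr6:108660629-108666925), a basic helix-loop-helix repressor, was lower on day 3 in macrophage-like cells, 128 CPM (124 to 132) against 65.5 CPM (62.6 to 68.4), and in monocyte-like cells, 109 against 67.0 CPM. In dendritic cell-like cells it was 169 CPM on both days, with an interval of the log2 ratio from -0.13 to 0.13. Its highest level on day 1 was in neutrophil-like cells, 549 CPM (529 to 569.8). FAP-like cells, at 121 and 131 CPM, stood near the macrophage-like cells of day 1 and above those of day 3.

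*Nr4a1* (chr15:101253902-101274795) stood at 262 CPM (256 to 268) in macrophage-like cells of day 1 and 84.7 CPM (81.5 to 88.1) on day 3. The share of these cells with a UMI was 80.4% and 58.1%, and 46.1% and 20.7% after thinning. It was also more than 2-fold lower in FAP-like cells, 271 against 117 CPM. In monocyte-like cells, 236 against 189 CPM, and dendritic cell-like cells, 246 against 205 CPM, the ratios were smaller, -0.32 and -0.26 on the log2 scale. On day 1 the FAP-, macrophage-, endothelial- and dendritic cell-like classes were next to each other and each overlapped its neighbour, while on day 3 the macrophage-like cells were the lowest of the myeloid classes.

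By class, 3 of the 9 genes (*Maf*, *Irf8* and *Klf2*) were at least 2-fold higher in monocyte-like cells on day 3 and 1 (*Cebpb*) at least 2-fold lower, beside 20.7% and 3.9% of all genes. In dendritic cell-like cells 2 (*Irf8* and *Klf2*) were higher and 1 (*Cebpb*) lower, beside 14.8% and 3.58%. In FAP-like cells 3 (*Irf8*, *Maf* and *Mitf*) were higher and 3 (*Nr4a1*, *Klf4* and *Cebpb*) lower, beside 23.2% and 7.15%. The macrophage markers in FAP-like cells summed to 1084 CPM on day 1 and 2537 CPM on day 3, and their part in the *Irf8*, *Maf* and *Mitf* values there was not tested. In neutrophil-like cells 3 (*Maf*, *Irf8* and *Klf4*) were higher and 3 (*Bhlhe40*, *Cebpb* and *Nr4a1*) lower, beside 36.4% and 10.2%.

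The neutrophil-like values of day 3 rested in part on few deep cells. Of the 253 cells, 35 had at least 3000 UMIs, with a median of 11820.0, and held 56.0% of the UMIs of the class. In these the macrophage markers summed to 11557 CPM and the neutrophil markers to 1553 CPM, against 669.9 and 52878 CPM in the other 218. These deep cells carried most of the macrophage factors. *Maf* was at 388 CPM in the deep and 19.2 CPM in the other cells of day 3, and *Irf8* at 104 CPM and, from 1 UMI, 2.75 CPM. In the cells under 3000 UMIs, *Cebpb* was at 10257 CPM on day 1 and 6564 CPM on day 3, *Bhlhe40* at 562 and 310.2 CPM, and *Nr4a1* at 753 and 489 CPM. Each of these stayed lower on day 3 but within 2-fold. *Klf2*, at 816 and 763 CPM, did not differ beyond its interval, with a log2 ratio of -0.09 (-0.28 to 0.08). The share of ambient RNA in the class, estimated from collagen genes and *Dcn*, came to 2.04% for day 1 and 26.6% for day 3, and its part in these values was not tested.

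**Figure D3:**
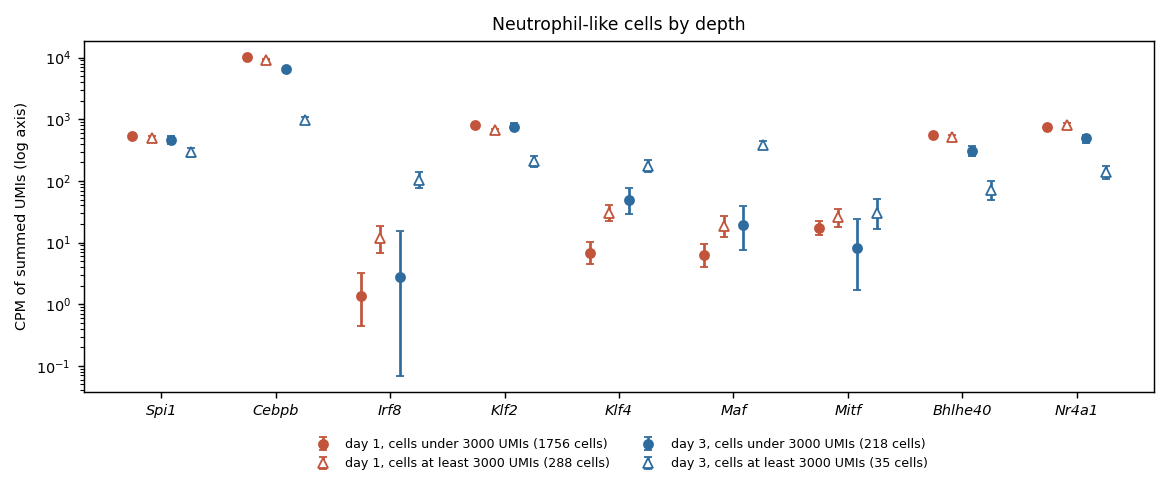
CPM (y axis, log scale) of the 9 genes in neutrophil-like cells below and from 3000 UMIs on each day, with 95% Poisson intervals. The 35 deep cells of day 3 stand apart from the other 3 sets, high for Maf, Irf8 and Klf4 and low for Cebpb, Bhlhe40 and Nr4a1.

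Clusters that held cells of both days allowed the days to be compared within a cluster, although its cells could still differ between the days. In the *Plac8*-led cluster the neutrophil markers summed to 13565 CPM on day 1 and 906 CPM on day 3. Of its cells, 37 of 137 on day 1 and 24 of 783 on day 3 had fewer than 3000 UMIs. The part of either in its ratios was not tested. *Cebpb* was lower on day 3 in the *Plac8*-led cluster, 5089 against 1916 CPM, in the *Rsad2*-led cluster, 5379 against 1629 CPM, and in the *Ifitm6*-led cluster, 5354 against 2883 CPM, where it stayed within 2-fold at -0.89 (-0.95 to -0.84). *Maf* was higher in the same clusters, by 1.25, 1.57 and 0.87 on the log2 scale, and *Irf8* by 1.10, 0.85 and 0.51. The *Fcrls*-led cluster, the macrophage-like one with a ratio (24 cells on day 1), did not share this, with -0.29 (-0.55 to -0.01) for *Maf* and -0.14 (-0.56 to 0.34) for *Irf8*, while *Cebpb* was lower there too, -1.72 (-1.82 to -1.61). In the *Sfrp2*-led FAP-like cluster (25 cells on day 1) *Maf* was at -0.97 (-1.47 to -0.36) and *Irf8* at -0.88 (-1.78 to 0.43). These 25 cells had a median of 6484 UMIs, against 25688.5 in the cells of day 3. Their *Spi1* level was 146 CPM, against 51.6 CPM on day 3, and the part of myeloid RNA in these ratios was not tested. *Nr4a1* differed between the clusters. It was lower in the *Plac8*-led and *Rsad2*-led clusters, with log2 ratios of -1.38 (-1.54 to -1.23) and -1.39 (-1.65 to -1.11). It was also lower in the *Fcrls*-led cluster, -1.81 (-2.10 to -1.48), and in the *Sfrp2*-led cluster, -1.56 (-1.89 to -1.19). In the *Ifitm6*-led cluster it did not differ beyond its interval, 0.12 (-0.10 to 0.33). *Bhlhe40* was lower in the *Rsad2*-led cluster, -1.83, and higher in the *Ifitm6*-led cluster, 0.60. *Klf2* was higher in the *Ifitm6*-led cluster, 1.39 (1.18 to 1.60), and lower in the *Fcrls*-led cluster, -0.42 (-0.75 to -0.04). It did not differ beyond its interval in the *Plac8*-led cluster, 0.08 (-0.13 to 0.30), or the *Rsad2*-led cluster, -0.13 (-0.44 to 0.22). The *Rsad2*-led cluster had 50 cells on day 1, with a median of 2410 UMIs and 28 cells under 3000 UMIs. On day 3 it had 375 cells, with a median of 10062 UMIs and 16 cells under 3000 UMIs. The part of this difference in depth in its ratios was not tested.

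The macrophage-like clusters of 1 day differed among themselves. The *Cd163*-led cluster, called by a scavenger receptor gene, also had *Ppbp* and *Arg1* among its leading genes, as did the *Ccl24*-led cluster. On day 1 the *Cd163*-led cells stood above the *Ccl24*-led cells for *Maf*, 222 against 126 CPM, *Irf8*, 104 against 55.7 CPM, and *Klf4*, 319 against 205 CPM. *Bhlhe40* was the reverse, 93.3 against 156 CPM. *Klf2* and *Spi1* did not differ between these clusters beyond their intervals, and *Cebpb* differed little, 4234 and 4141 CPM. On day 3 the *Fcrls*-led cells had more *Maf* than the *Gpnmb*-led cells, 336 against 212 CPM, and less *Irf8*, 145 against 199 CPM. *Mitf*, at 42.7 and 41.5 CPM, had overlapping intervals. The *Rsad2*-led cells of day 3 had the highest *Maf* level of all clusters with at least 50 cells of a day, 475 CPM (454 to 497). The 24 *Fcrls*-led cells of day 1 stood at 410 CPM.

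**Figure D4:**
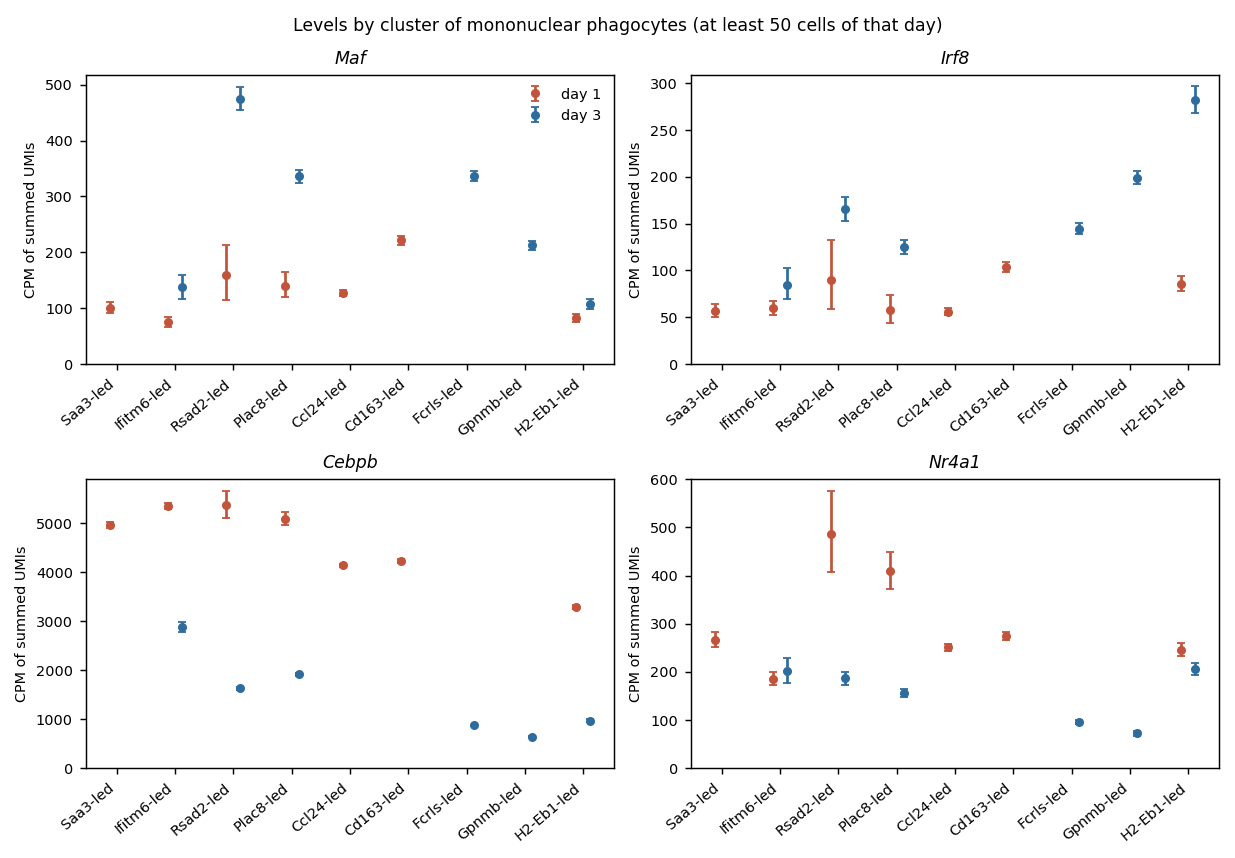
CPM (y axis, from 0) of Maf, Irf8, Cebpb and Nr4a1 in the clusters of monocyte-, macrophage- and dendritic cell-like cells (x axis) on each day with at least 50 cells, with 95% Poisson intervals. Points of day 3 lie below those of day 1 for Cebpb wherever both are drawn, and Maf peaks in the Rsad2-led cells of day 3.

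Tissue digestion induces immediate early and heat shock genes, and *Nr4a1* is itself an immediate early gene. The 15 genes of a dissociation list summed to 7993 CPM in macrophage-like cells of day 1 and 6947 CPM on day 3, with 2 genes (*Fosb* and *Atf3*) at least 2-fold higher and 5 (*Socs3*, *Junb*, *Ier2*, *Zfp36* and *Btg2*) at least 2-fold lower. In monocyte-like cells the sums were 8169.7 and 13053 CPM, with 6 genes higher and 1 lower, and in dendritic cell-like cells 8206 and 12059 CPM, with 5 higher and 0 lower. Macrophage-like cells were divided at the median share of this list over both days. On day 1 the 1236 cells over it had 361 CPM of *Nr4a1* and the 1168 others 165 CPM, and on day 3 the values were 123 and 55.8 CPM. *Klf4* and *Klf2* also stood higher in the cells over the median, on day 3 by 243 against 136 CPM and by 302 against 131 CPM. *Cebpb*, at 4604 and 3742 CPM on day 1 and 924 and 655 CPM on day 3, was lower on day 3 in both sets. So was *Nr4a1*. The part of digestion in these values was not tested.

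Genes of the cell cycle summed to 23.2 CPM in macrophage-like cells of day 1 and 1010.1 CPM on day 3. Among those of day 3, the 614 cells with at least 5 UMIs of 8 cycle genes had less *Cebpb*, 620.2 CPM, than the 452 cells with none, 1005 CPM. Their *Maf* level was close to that of the other cells, 270.0 and 280.4 CPM, and *Bhlhe40* was at 56.1 and 78.8 CPM. The cycle genes were counted without thinning, so deeper cells enter the first set more readily. The neutrophil markers in macrophage-like cells summed to 975 CPM on day 1 and 104 CPM on day 3, and their part in the ratios was not tested.

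The families of the 9 genes, 67 genes with partners of the myeloid lineage, were compared in macrophage-like cells. Of 62 with at least 50 UMIs, 9 were at least 2-fold higher on day 3 and 16 at least 2-fold lower, beside 29.1% and 6.32% of all genes, with a median log2 ratio of -0.08. With libraries scaled by the median gene ratio the counts were 6 and 22. All 3 NR4A genes were lower. *Nr4a2* went from 229.5 to 56.2 CPM and *Nr4a3* from 90.2 to 15.3 CPM, with a log2 ratio of -2.56 (-2.70 to -2.42) for the latter. Of 10 Krüppel-like genes 0 were higher and 3 lower, *Klf7* at -1.56 (-1.66 to -1.47), *Klf16* at -1.26 (-1.51 to -1.01) and *Klf9* at -1.16 (-1.34 to -0.99). Of 7 C/EBP genes 1 was higher and 2 lower. *Cebpa*, which stabilizes myeloid identity, was the higher one, 65.7 against 164 CPM, and *Cebpe*, a factor of granulocytes, went from 7.78 to 1.76 CPM along with *Cebpb*. *Cebpd* was within 2-fold at -0.57 (-0.69 to -0.45).

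Of 8 IRF genes 2 were higher, *Irf8* and the sparse *Irf4*, from 0.565 to 1.19 CPM, and 1 was lower, *Irf1*, a gene induced by interferon gamma, from 53.2 to 18.1 CPM. Of 5 MAF genes 0 were higher and 1 was lower, the small *Maff*, which lacks a transactivation domain, 97.3 against 17.8 CPM. Among the relatives of *Mitf*, *Tfec* was lower, 44.1 against 12.2 CPM, and *Tfeb*, at 0.89 (0.71 to 1.08), and *Tfe3*, at -0.15 (-0.27 to -0.03), were within 2-fold. *Bhlhe41*, the closest relative of *Bhlhe40*, was the gene with the largest ratio of the list, 1.86 against 35.8 CPM or 4.25 (3.88 to 4.68) on the log2 scale. Of the 10 ETS genes 1 was lower, *Ets2*, from 266 to 54.7 CPM. The partners were divided, with 5 of 13 higher, led by *Nr1h3*, the oxysterol receptor, at 1.84 (1.71 to 1.99), *Batf3* at 1.75 (1.33 to 2.21) and *Batf2* at 1.71 (0.86 to 2.72), and 4 lower, led by *Id3* at -2.06 (-2.15 to -1.98), *Hif1a* at -1.83 (-1.87 to -1.78) and *Batf* at -1.64 (-1.83 to -1.47).

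**Figure D5:**
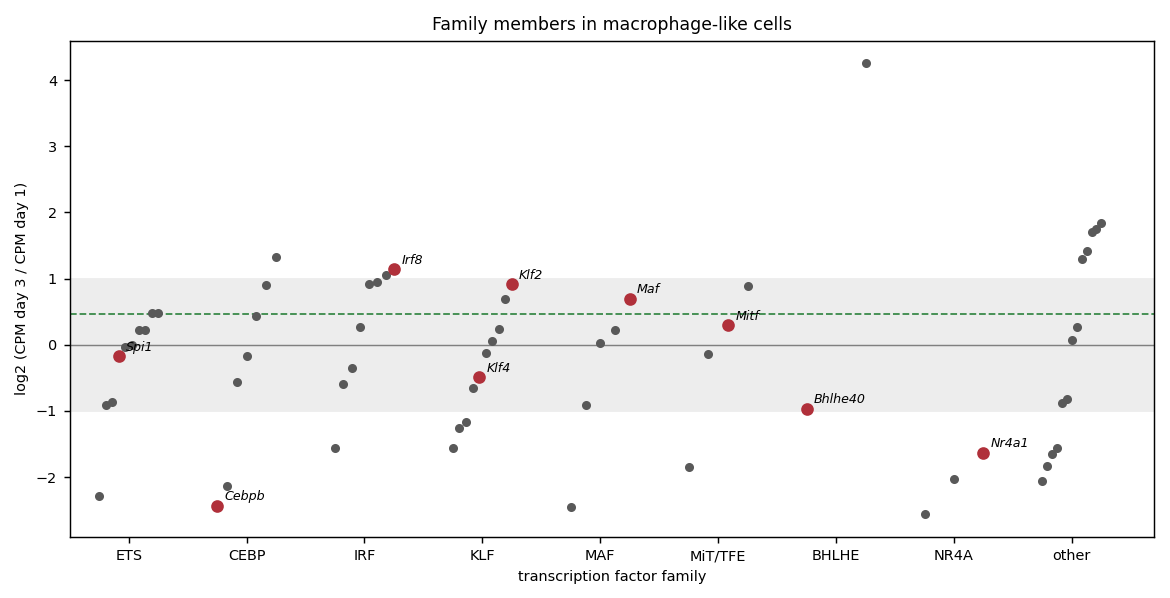
Log2 ratio of CPM on day 3 over day 1 in macrophage-like cells (y axis) for 62 family genes by family (x axis), with the 9 genes in red. The grey band is less than 2-fold and the dashed line is the median of all genes. All 3 NR4A genes lie under the band, and the top point is Bhlhe41.

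Across the 21 groups of 1 cluster and 1 day with at least 50 cells, the log2 levels of 10388 genes were set beside each of the 9. The groups share 2 libraries, so the coefficients are descriptions. The genes most like *Spi1* were *Alox5ap*, *Fcer1g* and *Hcls1* (Pearson r from 0.982 to 0.986), of which *Fcer1g* encodes the common gamma chain of Fc receptors. Those most like *Cebpb* were *Junb*, *Ier3* and *Fosl2* (Pearson r from 0.966 to 0.979), and those most like *Nr4a1* *Junb*, *Birc3* and *Zfp36* (Pearson r from 0.933 to 0.957), so that *Junb* stood in both sets. *Irf8* was most like *Cd48*, *Lat2* and *Aif1* (Pearson r from 0.932 to 0.953), and *Maf* was like the complement receptor gene *C3ar1* (Pearson r = 0.953) and the selenium carrier gene *Selenop* (0.951). For *Bhlhe40* they were *Nr4a3*, *Skil* and *Tnfaip2* (Pearson r from 0.899 to 0.906), the first a family member of *Nr4a1*. *Mitf* had *Pla2g15*, *P2ry6* and *Cd84* (Pearson r from 0.896 to 0.911), the first a lysosomal phospholipase. *Klf2* had *Tgoln1*, *Tnfrsf23* and *Lyst* (Pearson r from 0.916 to 0.931) and *Klf4* *Selenos*, *Ssr4* and *Cope* (Pearson r from 0.901 to 0.925), the lowest coefficients of the 9 beside those of *Mitf* and *Bhlhe40*.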

How the data were processed

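Raw UMI counts of each barcode, unfiltered, were deposited by the authors from 10x Genomics 3-prime libraries aligned to mm10 (Cell Ranger 5.0.0 in the submitters' processing notes). Cells were taken by rank of UMIs after the study's cell numbers, then filtered. Counts were normalized with SCTransform (Seurat 5.3.0, sctransform 0.4.2, R 4.3.3, first version of its regression), with 3000 variable features less the markers and factors listed, 10 PCs and a resolution of 0.8. Naming a cluster took at least 3 raised markers of its best list, and no rival list with more markers among the 10 leading genes. Python 3.11.15, SciPy 1.17.1 and scanpy 1.11.5 (Scrublet) were used for the rest. CPM carry exact Poisson intervals and shares Clopper-Pearson intervals, at 95%. For log2 ratios 0.5 was added to both counts, with an exact binomial interval. On simulated counts for macrophage-like cells, with 11118 genes of which 200 changed, 95.4% of the intervals held the true ratio. A gene counts as higher or lower at 2-fold or more. With 1 library per day no test was made. Thinning drew 3000 UMIs per cell without replacement and left out shallower cells, 42 and 22 of the macrophage-like cells. Named were the 9 genes, their fixed relatives, the 3 family genes per direction with the largest ratio and the 3 genes most alike, of which some results are not reported here. Alternatives changed the call of cells, mitochondrial limit, doublets, normalization, PCs, resolution, joint clustering, naming, summary, scaling, ambient RNA, dissociation response, depth and the count minimum. The genes and lists were chosen with earlier results of these data known. RefSeq promoter sequences (GRCm38.p6) matched 6 of the 9 genes, in 9 windows, and gene positions are from RefSeq on that build.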

Additional observations from a re-analysis of the deposited data

Results flagged for a closer look

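*Klf4* was higher on day 3 in neutrophil-like cells, with a log2 ratio of 3.14, and lower in FAP-like cells, with -1.05. The directions are opposite, each ratio was at least 2-fold with an interval on its side of 0, and the difference between the classes was not tested, since each class had 1 library per day. In the neutrophil-like cells under 3000 UMIs the log2 ratio was 2.85 (1.88 to 3.77), from 25 UMIs on day 1 and 18 on day 3. It turned to -1.29 with each library clustered on its own and to -1.07 with each cell named by its own markers.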

How the results depend on the processing

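In macrophage-like cells 8 of the 9 genes kept the direction of their ratio in 14 of 14 alternatives, and *Mitf* in 13 of 14, with -0.01 under the median ratio size factor. *Cebpb* ranged from -2.75 to -1.96, *Nr4a1* from -1.94 to -1.22 and *Irf8* from 0.75 to 1.38. The count of the 9 genes at least 2-fold higher was 1, and became 0 with cells called at 10% of the 99th percentile of UMIs, 0 with the size factor and 3 with each library clustered on its own. The call at 10% also took the family genes at least 2-fold higher from 9 to 4. Over 5 classes, 22 of 45 ratios were at least 2-fold, and 14 with log-normalized clustering, which left no dendritic cell-like class. Of the single ratios under alternatives, 293 lay within the interval of the reported value, 278 did not, and 5 of at least 2-fold turned direction, all in neutrophil-like cells: *Klf4* to -1.29 and *Irf8* to -0.38 with libraries clustered singly, and *Klf4* to -1.07, *Irf8* to -3.27 and *Maf* to -0.42 with cells named by their own markers. The cause was not tested. Ratios within 2-fold also changed sign, among them *Maf* in dendritic cell-like cells from 0.40 to as low as -0.75, *Nr4a1* there from -0.26 to as high as 0.38 and *Klf4* in monocyte-like cells, which kept its sign in 8 of 13. The 2-fold difference of *Irf8* in macrophage-like cells was kept in 12 of 14, of *Irf8* in monocyte-like cells in 11 of 13, of *Mitf* in FAP-like cells in 10 of 13, of *Klf4* there in 12, of *Cebpb* in monocyte-like cells in 12 and of *Cebpb* in FAP-like cells in 8 of 13. The sets of macrophage-, monocyte- and *Plac8*-led cells together, and of shallow neutrophil-like cells, were alternatives chosen after seeing the data. Dendritic cell-like ratios could not be had with libraries clustered singly, nor neutrophil-like ones with the call at 10%, which left 13 cells on day 3. No paired analysis was possible because each day had 1 library from its own mice. With 1 library a day, depth limits the sparse genes and mice limit all of them.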

Other observations

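The 204 cells of day 3 in the *Gal*-led cluster carried satellite cell and myoblast markers and had low levels of the 9 genes. *Klf4* stood at 53.6 CPM (49.0 to 58.7), *Cebpb* at 89.8 CPM (83.7 to 96.2) and *Spi1* at 12.2 CPM (10.1 to 14.8). Day 1 had 6 such cells, too few to compare. The endothelial-like cells, 83 on day 1 and 24 on day 3, had 501 CPM (455 to 550.0) and 412 CPM (336 to 501) of *Klf2*, which overlapped. Their *Cebpb* level was 2376 and 155 CPM, and *Spi1*, at 174 and 12.2 CPM, was higher on the day with more macrophage markers, which summed to 5446 and 955 CPM, and whose part in these values was not tested. The leading gene of this cluster was the globin gene *Hbb-bs*. In barcodes with at most 100 UMIs, *Cebpb* was at 3612 CPM on day 1 and 665 CPM on day 3, and *Maf* at 61.6 and 116 CPM.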
